A study of Arabidopsis thaliana with 6 samples.

Results

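Transcripts of 6 nuclear genes were followed in Arabidopsis thaliana seedlings mutant for NAR1 or NBP35, genes of cytosolic iron-sulphur (Fe-S) cluster assembly. DME (AT5G04560) acts in DNA demethylation, ICU2 (AT5G67100) and PRL (AT4G02060) in DNA replication, ATLIG4 (AT5G57160) in DNA repair, and AUR1 (AT4G32830) and AUR2 (AT2G25880) in mitosis. The members were the probe sets annotated to exactly 1 of these genes, which gave 8 of the 22746 probe sets tested, 3 for DME and 1 for each of the others. The gene table lists AT5G04570 and AT5G04580 as other names of DME, and the sources used here do not say which stretch of the transcript each of its probe sets reads.

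The groups were nar1-4 seedlings, nbp35-3 seedlings and wild-type seedlings, all in the Col-0 background, with 2 arrays each, which the series' design text calls biological replicates. All were collected as whole plants at 2 weeks, after growth on MS plates at 22 °C with 16 h light and 8 h dark, and none carried a further treatment. The labels write both mutant alleles with "/-" and do not explain the sign, and 1 label field of the nbp35-3 samples writes the allele as nbp35-4. Labelling started from 250 ng RNA, or 200 ng in 3 samples known only by codes that the labels tie to no genotype.

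NAR1 and NBP35 belong to the cytosolic pathway that builds Fe-S clusters and hands them to cytosolic and nuclear proteins, among them several enzymes that work on DNA. DME is a DNA glycosylase that cuts out 5-methylcytosine, is best known for activating maternal alleles in the central cell of the female gametophyte, and holds an Fe-S cluster in its glycosylase domain. ICU2 is the catalytic subunit of DNA polymerase alpha, which starts new strands, and replicative polymerases of its family hold an Fe-S cluster in budding yeast. PRL, also named MCM7, is a subunit of the ring-shaped helicase that opens the double helix at replication forks. ATLIG4 seals broken ends in non-homologous end joining, and AUR1 and AUR2 are closely related Aurora kinases of the spindle and the forming cell plate. In a seedling, replication and mitosis genes are active mainly in meristems and young organs.

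Values are RMA expression values on the log2 scale, where a difference of 1 is a doubling. In the annotation used, no probe set named NAR1 (0) or NBP35 (0), and the mutated genes thus gave no check of the labels. That annotation did not list 8730 of the 22746 probe sets. Genes are called measured here only where it named a probe set for them. Arrays resembled each other more by replicate number than by genotype. Across probe sets, Pearson's r was 0.9873 to 0.9943 between genotypes for arrays sharing a number, and 0.9679 to 0.9698 between the arrays of 1 genotype. For arrays sharing neither it was 0.9627 to 0.9772, a range that encloses that of a shared genotype. What a replicate number shares is not stated in the labels, and differences within each number are therefore given beside the means. Of the organ markers, the 2 green tissue genes averaged 12.66 to 12.99 per array in nar1-4, 12.66 to 12.83 in nbp35-3 and 12.64 to 12.82 in wild type. The 3 root genes averaged 7.59 to 7.70 in nar1-4, 7.38 to 8.10 in nbp35-3 and 7.64 to 7.68 in wild type. The only measured shoot meristem gene, CLV3, stood at 3.07 in nar1-4, 2.90 to 3.39 in nbp35-3 and 3.03 to 3.09 in wild type, under the first quartile of each array, and 0 of the 5 root meristem genes were measured. Of the root genes, PYK10 stood near 12 on every array and the root hair genes EXPA7 and EXPA18 much lower, with the nbp35-3 arrays far apart.

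All 8 probe sets lay above the first quartile on all 6 arrays. Those of PRL, ATLIG4, AUR1, AUR2 and 1 of DME also lay above the median on all 6, whereas the other 2 of DME lay above it on 0 arrays and ICU2 on 1.

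**Figure D1:**
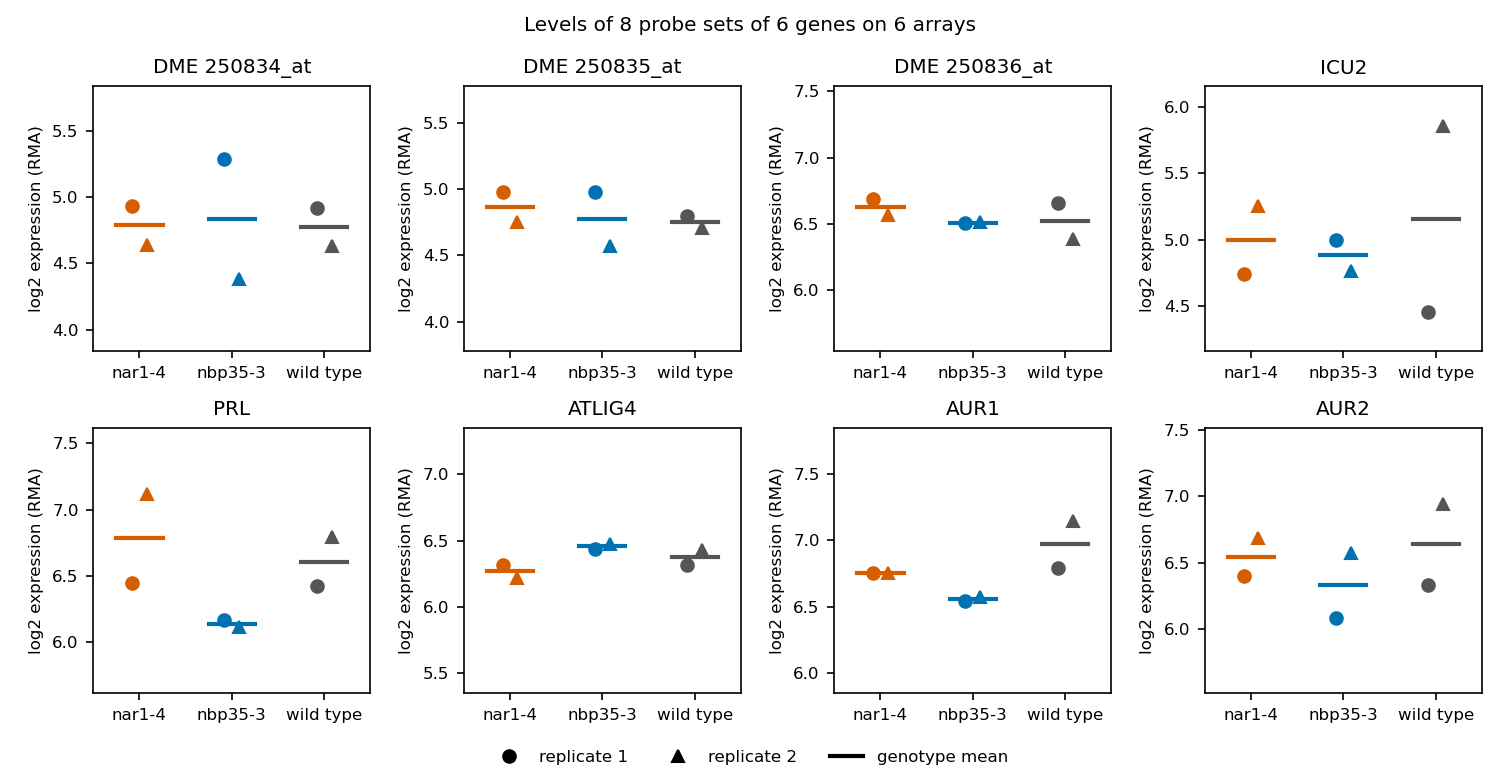
Log2 expression (RMA) of the 8 probe sets, a panel each, with genotypes on the x axis, circles for replicate 1, triangles for replicate 2 and bars for the mean of the 2 arrays. Every panel spans 2 log2 units, and only the differences within a panel can be compared. The nbp35-3 arrays of PRL and AUR1 lie below those of both other genotypes, while wild-type replicate 2 is the highest array for ICU2, AUR1 and AUR2.

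The question put to the demethylase gene was whether its transcript differed in mutants of the pathway that builds such clusters. Mean DME levels were close in the 3 genotypes on each of its probe sets, while the nbp35-3 arrays were far apart on 250834_at. Probe set 250836_at, the only one above the median of every array, read 6.69 and 6.57 in replicates 1 and 2 of nar1-4, 6.51 and 6.51 in nbp35-3, and 6.66 and 6.39 in wild type. Its mean was 6.63 ± 0.09 (SD, n = 2) in nar1-4, 6.51 ± 0.003 in nbp35-3 and 6.52 ± 0.19 in wild type, and the wild-type arrays enclosed the nbp35-3 arrays and overlapped those of nar1-4. The limma difference from wild type was 0.11 ± 0.15 (SE) in nar1-4, with a 95% interval of -0.29 to 0.50, and -0.01 ± 0.15 in nbp35-3, with an interval of -0.41 to 0.38.

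The dimmer DME probe sets gave the same picture in the means. On 250834_at nar1-4 read 4.93 and 4.64, nbp35-3 5.29 and 4.38, and wild type 4.92 and 4.63. On 250835_at nar1-4 read 4.98 and 4.75, nbp35-3 4.98 and 4.57, and wild type 4.80 and 4.71. The nbp35-3 arrays thus stood on both sides of wild type, at 0.37 within number 1 and -0.25 within number 2 on the first, and at 0.18 and -0.13 on the second. The 95% intervals of the nbp35-3 differences were wide, at -0.80 to 0.93 and -0.47 to 0.52. On 250836_at the signs within the numbers were turned, at -0.15 and 0.13. The 3 probe sets therefore disagreed on the sign within each number while none of their mean differences from wild type went beyond 0.11. All 3 were higher than wild type within both numbers in nar1-4, by 0.01 to 0.18. In that comparison 25.8% of all probe sets were higher within both numbers. The root hair genes EXPA7 and EXPA18 had the signs of the dim DME probe sets in nbp35-3, and are named here after their values were seen, with EXPA7 at 6.05 and 4.75 in nbp35-3, against 5.40 and 5.27 in wild type. EXPA18 read 6.44 and 5.37 in nbp35-3, against 5.64 and 5.51 in wild type. Opposite signs within the numbers occurred in 49.2% of all probe sets in this comparison, so the match of EXPA7 and EXPA18 is only a description. The other measured root gene, PYK10, did not have these signs. It was below wild type within both numbers in nbp35-3, at -0.20 and -0.13. The part of root tissue in the DME values was not tested.

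The replication genes were compared to see whether the machinery that copies DNA was transcribed at another level in the mutants. PRL was lowest in nbp35-3, where it read 6.17 and 6.11, against 6.45 and 7.12 in nar1-4 and 6.42 and 6.79 in wild type. Both nbp35-3 arrays lay below all others, and nar1-4 and wild type overlapped. The nbp35-3 mean was 6.14 ± 0.04 (SD, n = 2) and the wild-type mean 6.61 ± 0.26. The limma difference was -0.47 ± 0.27 (SE), a fold of 0.724, with a 95% interval of -1.16 to 0.23. It was -0.25 within number 1 and -0.68 within number 2. The unadjusted limma p was 0.147, rank 945 of 22746 probe sets, and the adjusted p was 1, so that the difference did not pass the test. Without wild-type replicate 2 it was -0.28, and without wild-type replicate 1 it was -0.65. Whether fewer replicating cells or less PRL transcript per cell underlies such a value cannot be told apart in whole seedlings, which holds for each gene below as well.

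The gap in PRL was wider between the mutants than between either and wild type, though it did not pass the test. PRL in nbp35-3 stood -0.64 ± 0.27 from nar1-4, a fold of 0.641, with -0.28 within number 1 and -1.01 within number 2. This value lay at percentile 0.972 of the differences of all probe sets between the mutants, and its unadjusted limma p was 0.0647 (adjusted p = 1). Without nar1-4 replicate 2 the difference between the mutants was -0.31, and without nar1-4 replicate 1 it was -0.98. In nar1-4 itself PRL was 0.17 ± 0.27 from wild type, with 0.03 and 0.32 within the numbers and a 95% interval of -0.52 to 0.87. Without nar1-4 replicate 2 the nar1-4 value was -0.16, and without wild-type replicate 1 it was -0.01.

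ICU2 did not keep a direction. It read 4.74 and 5.26 in nar1-4, 5.0 and 4.77 in nbp35-3, and 4.46 and 5.86 in wild type, so that the wild-type arrays were the lowest and the highest of all. Within number 1 both mutants were above wild type, nar1-4 by 0.29 and nbp35-3 by 0.54. Within number 2 both were below, nar1-4 at -0.60 and nbp35-3 at -1.09. The means hide this, with differences of -0.16 ± 0.49 (SE) in nar1-4 and -0.28 ± 0.49 in nbp35-3 and 95% intervals of -1.42 to 1.1 and -1.54 to 0.99. Without wild-type replicate 2 they were 0.54 and 0.43, and without wild-type replicate 1 they were -0.86 and -0.98. Opposite signs within the numbers were common, in 45.5% of all probe sets for nar1-4 and 49.2% for nbp35-3.

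**Figure D2:**
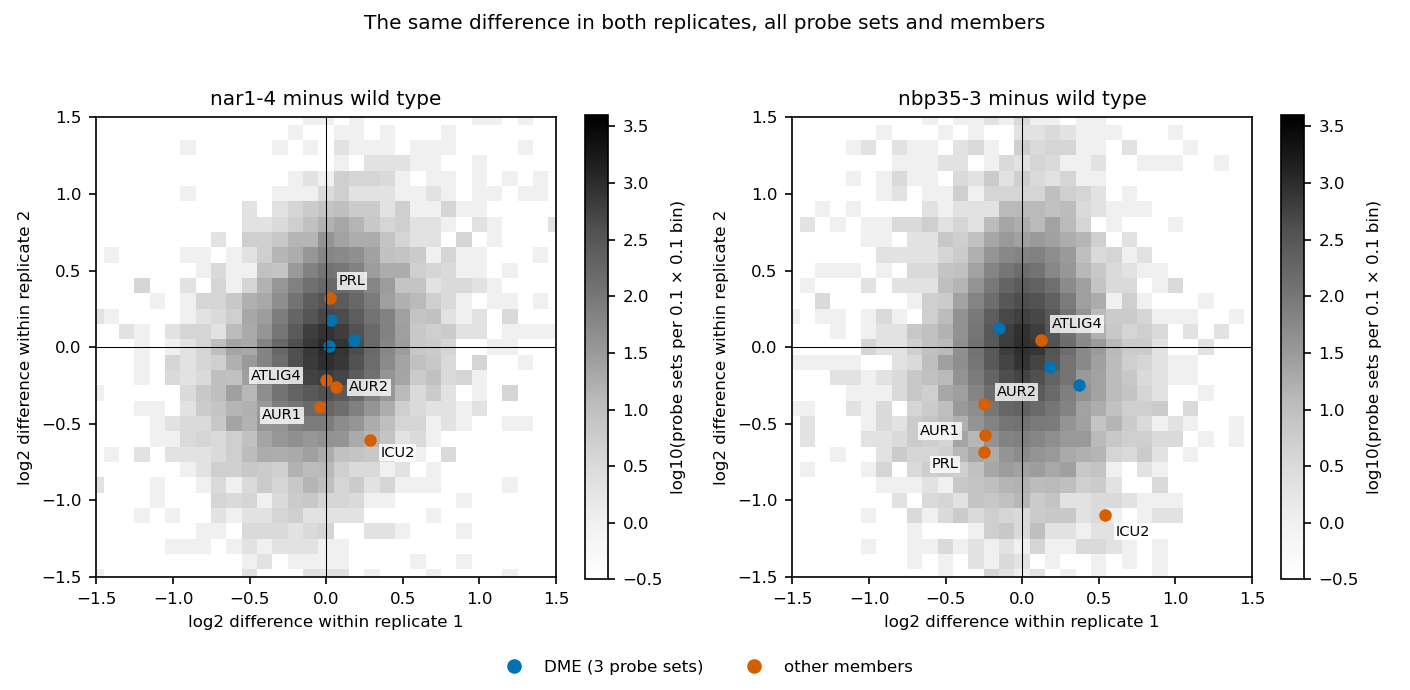
Log2 difference from wild type within replicate 1 (x axis) and within replicate 2 (y axis), for nar1-4 (left) and nbp35-3 (right). Grey squares give the log10 number of probe sets in each bin of 0.1 by 0.1, blue points the 3 DME probe sets and orange points the other members. PRL, AUR1 and AUR2 lie together at the lower left for nbp35-3, and ICU2 lies at 0.54 and -1.09 in the lower right.

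ATLIG4, the end-joining ligase, varied little, over 0.26 in all. It read 6.32 and 6.22 in nar1-4, 6.44 and 6.48 in nbp35-3, and 6.32 and 6.43 in wild type. The genotypes did not overlap, with nbp35-3 at the top and nar1-4 at the bottom, but the nearest arrays of neighbouring genotypes were at most 0.01 apart. The limma difference from wild type was -0.11 ± 0.13 (SE) in nar1-4, with -0.002 and -0.21 within the numbers, and 0.08 ± 0.13 in nbp35-3, with 0.12 and 0.05. The 95% intervals were -0.45 to 0.23 and -0.26 to 0.42, so a difference of a doubling lay outside both. Between the mutants the difference was 0.19 ± 0.13, nbp35-3 over nar1-4, with an unadjusted limma p of 0.208 (adjusted p = 1).

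The Aurora kinase genes, transcribed mainly in dividing cells, address mitosis. AUR1 was lower in the mutants than in wild type on every array, reading 6.75 and 6.76 in nar1-4, 6.55 and 6.57 in nbp35-3, and 6.79 and 7.15 in wild type. The arrays of the 3 genotypes formed separate steps, with nbp35-3 lowest and nar1-4 between. All 4 mutant arrays lay below both wild-type arrays for AUR1 alone among the 8 probe sets, and for 3.12% of all probe sets. The nar1-4 step was narrow, since its higher array was 6.76 and the lower wild-type array 6.79.

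In nbp35-3 AUR1 averaged 6.56 ± 0.02 (SD, n = 2), against 6.97 ± 0.25 in wild type. The limma difference was -0.41 ± 0.17 (SE), a fold of 0.753, with a 95% interval of -0.84 to 0.02, and it was -0.25 within number 1 and -0.57 within number 2. Its unadjusted limma p of 0.0568 was the smallest of any member against wild type, at rank 169 of 22746, and the adjusted p was 1. In nar1-4 the difference was -0.21 ± 0.17, with -0.04 and -0.39 within the numbers. Wild-type replicate 2 carried much of both values: without it the difference was -0.23 in nbp35-3 and -0.04 in nar1-4, and without wild-type replicate 1 it was -0.59 and -0.39. Wild-type replicate 2 was the highest of the 6 arrays for AUR1, AUR2 and ICU2, and for 19.2% of all probe sets. Of 6 genes listed as flower markers only AGL24 was measured, and 1 gene cannot stand for a tissue. AGL24 lay below wild type on all 4 mutant arrays, as did 3.12% of all probe sets, but in another order than AUR1. AGL24 was lowest in nar1-4, where its limma difference from wild type was -0.74 ± 0.20 (SE, unadjusted p = 0.01255, adjusted p = 0.9999). AUR1 was lowest in nbp35-3. AGL24 read 4.57 and 4.29 in nar1-4, 4.81 and 4.92 in nbp35-3, and 4.98 and 5.36 in wild type. A link between AGL24 and AUR1 was not tested.

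AUR2 overlapped between all genotypes. It read 6.40 and 6.69 in nar1-4, 6.09 and 6.57 in nbp35-3, and 6.34 and 6.95 in wild type. In nbp35-3 it was below wild type within both numbers, at -0.25 and -0.37, with a limma difference of -0.31 ± 0.29 (SE) and a 95% interval of -1.05 to 0.43. Without wild-type replicate 2 that difference was -0.01, and without wild-type replicate 1 it was -0.62. In nar1-4 it was -0.10 ± 0.29, with 0.07 within number 1 and -0.26 within number 2. AUR1 and AUR2 are close paralogs, and whether their probe sets read each other's transcript was not tested.

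**Figure D3:**
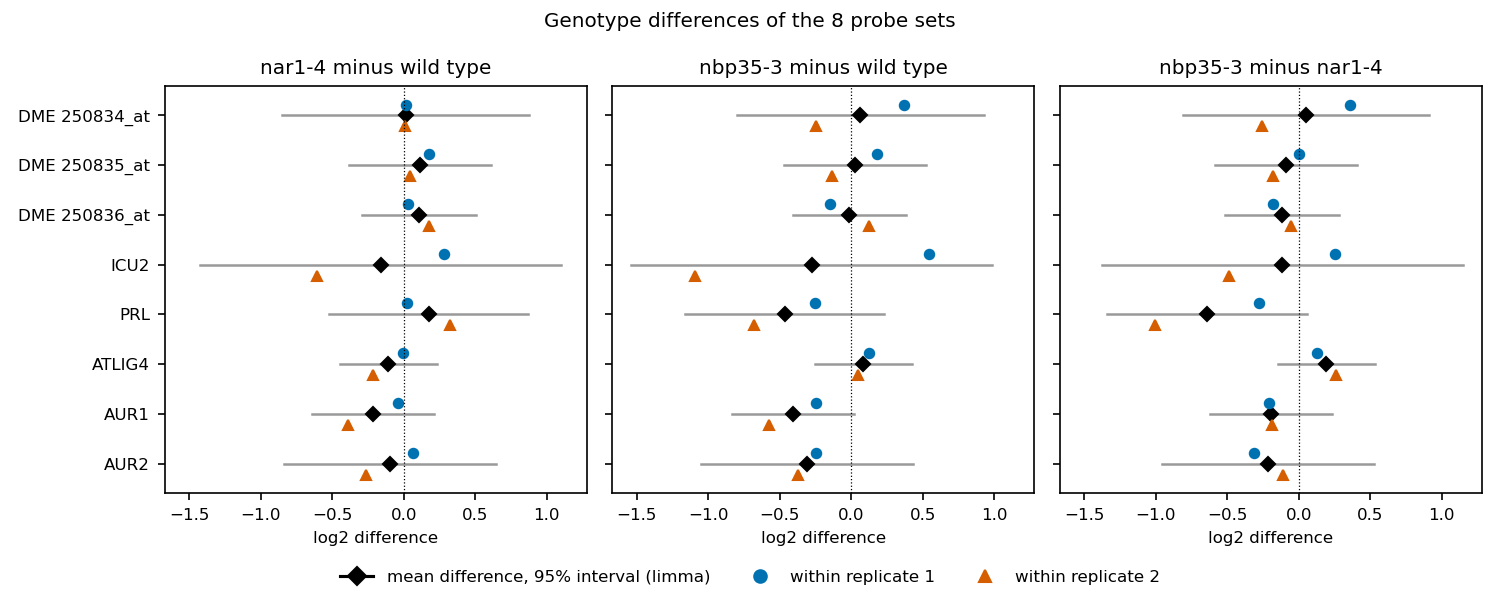
Log2 differences of the 8 probe sets in the 3 genotype comparisons (x axis). Diamonds with grey lines give the limma mean difference and its 95% interval, circles the difference within replicate 1 and triangles that within replicate 2. The intervals come from the fit without a term for the replicate number, and in that fit every interval includes 0. For PRL, AUR1 and AUR2 both replicates lie below 0 in nbp35-3 minus wild type.

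In every genotype comparison 0 of the 8 probe sets had a limma p under 0.05 after Benjamini-Hochberg adjustment over all probe sets, where the share called among all probe sets was 0% in each direction. At an unadjusted p under 0.05, in this fit without a term for the replicate number, the members also gave 0, against 0.369% of all probe sets higher and 0.492% lower in nar1-4 and 0.321% and 0.29% in nbp35-3. Between the mutants the shares were 0.506% higher and 0.448% lower in nbp35-3. In nbp35-3, 3 probe sets were lower than wild type within both numbers, those of PRL, AUR1 and AUR2, against 23.3% of all probe sets. The arrays did not overlap for 2 of them, PRL and AUR1, against 8.61% of all probe sets. In the same comparison 1 was higher within both numbers, ATLIG4, against 27.3%, also without overlap, against 11.1%. In nar1-4, 4 were higher within both numbers, the 3 of DME and that of PRL, against 25.8%, and 2 were lower, ATLIG4 and AUR1, against 28.5%, both without overlap, against 11.4%. No member (0) was higher in nar1-4 without overlap, against 9.16%. AUR1 alone was lower within both numbers in both mutants, against 10.5% of all probe sets. In nbp35-3 against nar1-4, 4 probe sets were lower within both numbers, those of PRL, AUR1, AUR2 and DME 250836_at, against 22.8%, and 3 of them (not AUR2) without overlap, against 8.93%. ATLIG4 was higher within both numbers there, against 27.8%, and without overlap, against 12%. The comparisons of both mutants with wild type share the wild-type arrays.

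Other genes of the same processes were thinly named in the annotation, and those without a named probe set may still be on the array. Of 206 genes in 5 lists whose names matched the gene table, 17 had a probe set of their own in the annotation. In every genotype comparison 0 of these 17 passed in either direction. The measured replication genes were TOPII, a topoisomerase that untangles DNA, POLA3, a DNA primase subunit that works with ICU2, and PSF2, a subunit of the GINS complex that travels with the helicase. All 3 means were below wild type in nbp35-3, with a median of -0.29 beside 0.01 over all probe sets, of which 47.6% had a mean below wild type. TOPII read 6.38 and 6.87 in nbp35-3, against 6.64 and 7.46 in wild type, a difference of -0.42 ± 0.33 (SE) with -0.26 and -0.59 within the numbers. POLA3 read 6.00 and 6.34, against 5.90 and 7.03 in wild type, so that it was 0.11 within number 1 and -0.69 within number 2. POLA3 thus had the signs of ICU2, and its 2 wild-type arrays also enclosed those of nbp35-3. PSF2 differed by -0.09 ± 0.16. In nar1-4 the 3 genes differed from wild type by -0.08 to 0.05. Between the mutants all 3 were lower in nbp35-3 than in nar1-4 within both numbers, as PRL was and as were 22.8% of all probe sets, with a median of -0.34 beside 0.02 over all probe sets.

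All 7 measured mitosis genes had a mean below wild type in nbp35-3, from -0.32 to -0.003 with a median of -0.15, where 47.6% of all probe sets had a mean below wild type. Of the 7, 5 were below within both numbers, as were 23.3% of all probe sets. The same arrays gave all of these values, as for the replication genes, so the signs are not independent of each other. BUBR1, a spindle checkpoint protein, read 4.57 and 5.09 in nbp35-3, against 4.81 and 5.49 in wild type, a difference of -0.32 ± 0.34 (SE). Haspin, a kinase that marks histone H3 in mitosis, differed by -0.15 ± 0.18, and ATSMC2, a condensin subunit, by -0.11 ± 0.14. AUR3, the third Aurora kinase, was named here for its kinship after its values were seen. AUR3 read 5.30 and 5.27 in nbp35-3, against 5.27 and 5.30 in wild type, a difference of -0.003 ± 0.22. In nar1-4, 6 of the 7 means were below wild type, as for 51.6% of all probe sets, with a median of -0.04 beside -0.01 over all probe sets. Haspin was furthest from wild type in nar1-4, where it read 4.81 and 4.92, against 5.01 and 5.35 in wild type (-0.31 ± 0.18), without overlap. ATSMC2 read 5.06 and 4.87 in nar1-4, against 4.83 and 4.85 in wild type (0.13 ± 0.14).

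Repair genes had no common sign. Of 5 measured, 3 had a mean above and 2 below wild type in each mutant, with medians of 0.06 in nar1-4 and 0.05 in nbp35-3. FANCM, a helicase of the Fanconi pathway, differed by 0.34 ± 0.30 (SE) in nar1-4, with 0.23 and 0.45 within the numbers, and by 0.05 ± 0.30 in nbp35-3. RAD9, part of a checkpoint clamp, differed by 0.07 ± 0.24 in nar1-4 and 0.27 ± 0.24 in nbp35-3. POLH, a polymerase that copies past lesions, differed by 0.06 ± 0.37 in nar1-4 and -0.28 ± 0.37 in nbp35-3. UNG, which removes uracil from DNA, differed by -0.04 ± 0.21 in nar1-4, and the helicase gene RECQ4A by -0.06 ± 0.20 in nbp35-3.

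DME had little company among demethylation and Fe-S genes. MPC, an imprinted gene, was the only measured gene of 35 in its list and differed by 0.26 ± 0.16 (SE) in nar1-4 and 0.29 ± 0.16 in nbp35-3. MPC read 3.16 and 2.99 in nar1-4, 3.03 and 3.18 in nbp35-3, and 2.91 and 2.71 in wild type. Both mutants lay above wild type without overlap, as did 9.16% of all probe sets in nar1-4 and 11.1% in nbp35-3, but all 6 values were under the first quartile of their arrays. AT3G02280, written as the electron donor ATR3 and the only measured gene of 13 in the cytosolic Fe-S list, differed by 0.10 ± 0.21 in nar1-4 and 0.09 ± 0.21 in nbp35-3.

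**Figure D4:**
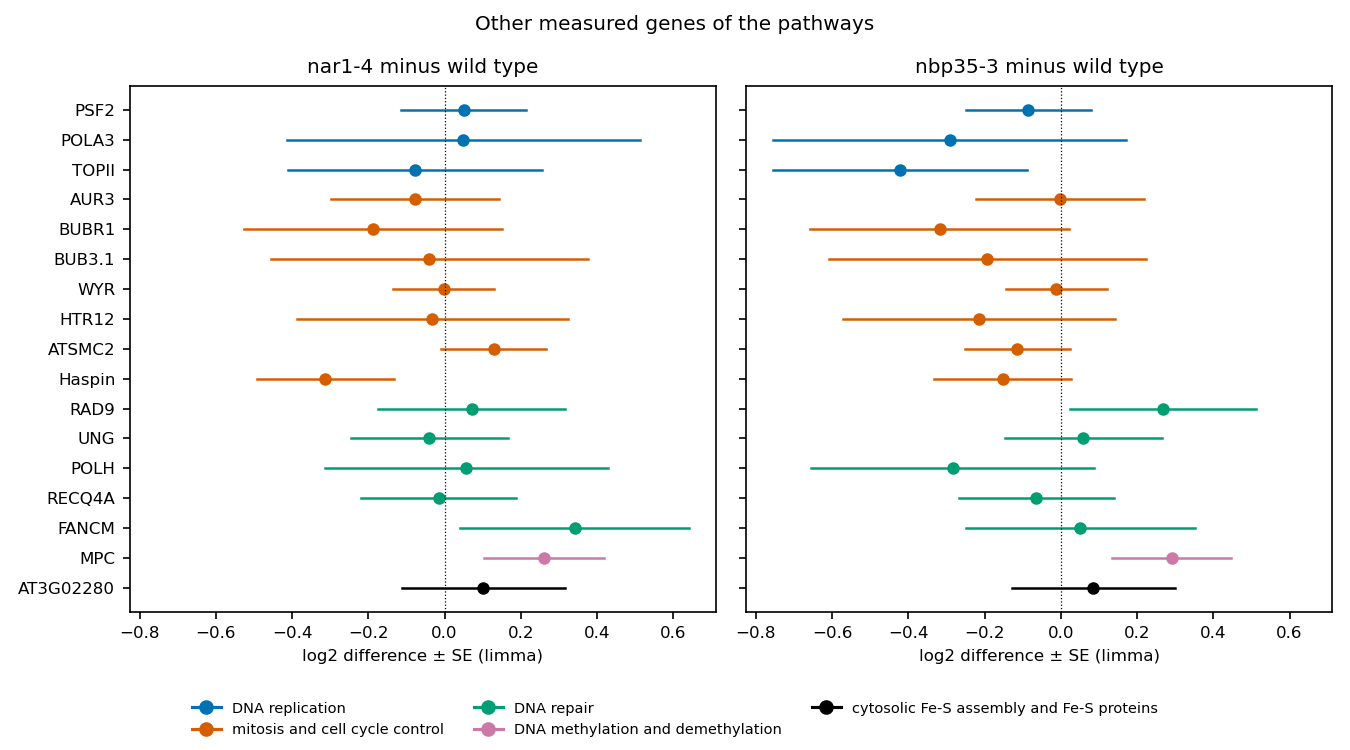
Log2 difference from wild type (x axis) of the 17 other measured genes of the 5 lists, with points for the limma difference and lines for its SE, in nar1-4 (left) and nbp35-3 (right). Colours mark the lists. In nbp35-3 the 3 replication genes and the 7 mitosis genes lie at or below 0, and the repair genes lie on both sides.

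Because arrays grouped by replicate number, the members were also compared between the numbers, with genotype as a covariate. This comparison called 12.3% of all probe sets higher and 11.2% lower in number 2 (limma, adjusted p under 0.05). Each number holds 1 array of every genotype. The p therefore measures how evenly the genotypes differ between these numbers, not what further replicate sets would show. This holds for every comparison of the numbers below. Among the members AUR2 passed. AUR2 averaged 6.73 ± 0.19 (SD, 3 arrays) in number 2 and 6.28 ± 0.17 in number 1, without overlap as for 21.3% of all probe sets, a limma difference of 0.46 ± 0.11 (SE, adjusted p = 0.0340). The AUR2 call was lost without any 1 of the 6 arrays, with adjusted p from 0.0541 to 0.181 and differences from 0.38 to 0.55. With arrays centred on their medians the adjusted p was 0.0602.

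DME was lower in number 2 on its dim probe sets but did not pass. Probe set 250834_at averaged 4.55 ± 0.14 (SD, 3 arrays) in number 2 and 5.05 ± 0.21 in number 1, a limma difference of -0.49 ± 0.15 (SE, adjusted p = 0.0709). It passed with arrays quantile normalized again (adjusted p = 0.0364) or centred on their medians (adjusted p = 0.0318). For 250834_at and 250835_at every array of number 2 lay below every array of number 1, as for 22.3% of all probe sets. On 250836_at the difference was -0.13 ± 0.10.

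ICU2 and PRL were higher in number 2 in nar1-4 and wild type and slightly lower in nbp35-3. For ICU2, number 2 minus number 1 was 0.51 in nar1-4, -0.23 in nbp35-3 and 1.40 in wild type. For PRL it was 0.67 in nar1-4, -0.06 in nbp35-3 and 0.37 in wild type. With all 6 arrays neither passed, at 0.56 ± 0.30 (SE, limma adjusted p = 0.236) for ICU2 and 0.33 ± 0.16 (adjusted p = 0.196) for PRL. Without either array of nbp35-3, the limma difference was 0.96 for ICU2 (adjusted p = 0.0141) and 0.52 for PRL (adjusted p = 0.0298), which leaves out the genotype with the other sign. Without an array of wild type the limma difference of ICU2 was 0.14 (adjusted p = 0.745), and without an array of nar1-4 that of PRL was 0.16 (adjusted p = 0.600). A single array stands for each genotype in each number, so the difference between genotypes was not tested. AUR1 differed by 0.003 in nar1-4, 0.03 in nbp35-3 and 0.35 in wild type, while AUR2 differed by 0.28, 0.49 and 0.61 in the same order of genotypes. AUR1 and AUR2 were thus higher in number 2 in all 3 genotypes, as were 27.5% of all probe sets, and DME 250834_at and 250835_at were lower in all 3, as were 29.5%.

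**Figure D5:**
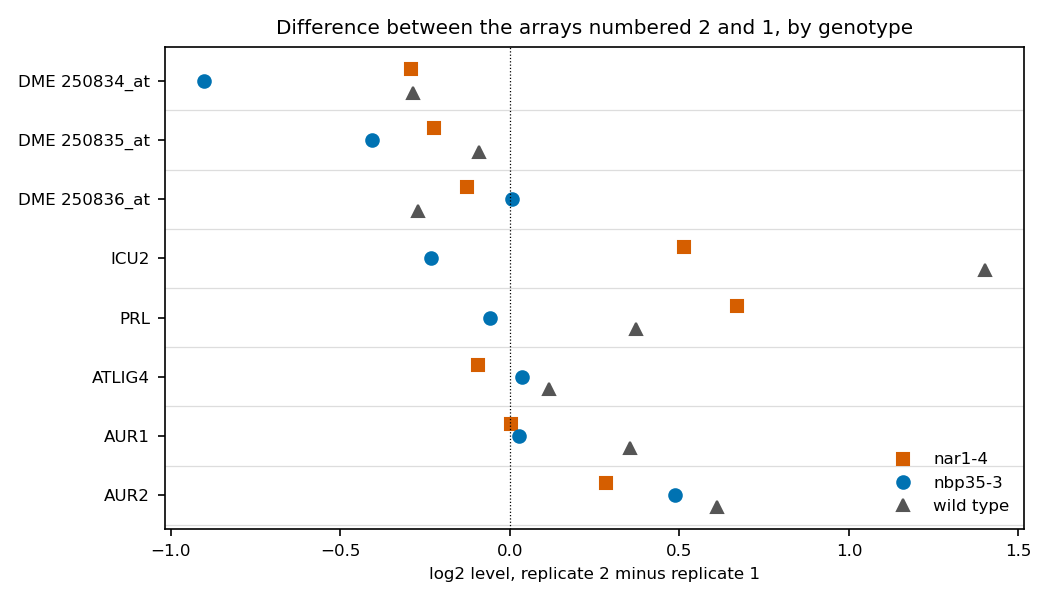
Log2 level of replicate 2 minus replicate 1 (x axis) for the 8 probe sets, with squares for nar1-4, circles for nbp35-3 and triangles for wild type, 1 difference per genotype. ICU2 and PRL lie right of 0 in nar1-4 and wild type and left of it in nbp35-3, and AUR2 lies right of 0 in all 3.

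Mitosis and replication genes outside the members were among those that differed by number. BUB3.1, BUBR1 and HTR12, the centromeric histone, were 0.72, 0.57 and 0.59 higher in number 2 (limma adjusted p = 0.00915, 0.0132 and 0.0173), and POLA3 was 0.75 higher (adjusted p = 0.0277). Of the 7 mitosis genes 3 rose and 0 fell, of the 3 replication genes 1 rose and 0 fell, and of the 5 repair genes POLH and FANCM rose (adjusted p = 0.0178 and 0.0218), beside 12.3% of all probe sets higher and 11.2% lower. The calls over all probe sets numbered 5325, and 1715 without an array of nar1-4. BUB3.1 and HTR12 are named here after their values were seen.

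The genes whose levels followed each member most closely over the 6 arrays were ranked by Pearson correlation among 6537 probe sets that named 1 gene and spanned at least 0.5 log2. With 6 arrays that fall into 2 sets by number such values are descriptions, and from 17 probe sets for ATLIG4 to 440 for the mean of DME exceeded 0.9. Closest to PRL were AT3G09700 (r = 0.997), AT5G57120 (0.994) and TCP15 (0.990), a transcription factor that acts on cell proliferation. TCP15 read 6.08 and 6.60 in nar1-4, 5.92 and 5.85 in nbp35-3, and 6.07 and 6.46 in wild type. It was picked for its likeness to PRL on these same arrays, so its order of genotypes adds no separate support. Closest to ICU2 were AT5G25580 (0.994), AT3G15810 (0.989) and ARR15 (0.985), a response regulator induced by cytokinin, which read 4.26 and 4.58 in nar1-4, 4.53 and 4.32 in nbp35-3, and 4.2 and 4.92 in wild type.

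For the other members the closest genes had no symbol beyond their locus. AT3G57060 (0.979), AT3G53190 (0.973) and AT2G07170 (0.960) were closest to AUR1. AT3G57060 read 3.86 and 3.94 in nar1-4, 3.53 and 3.46 in nbp35-3, and 3.81 and 4.44 in wild type. AT4G10270 (0.994), AT1G16750 (0.989) and AT1G20720 (0.987) were closest to AUR2, of which AT1G20720 had been written into the DNA repair list as FANCJ, a name the gene table does not pair with it. AT4G39550 (0.995), AT3G30160 (0.995) and AT3G28530 (0.995) were closest to the mean of DME, and AT5G59400 (0.980), AT1G79710 (0.968) and AT1G53660 (0.958) to ATLIG4.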

How the data were processed

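The values were deposited on the log2 scale for 22810 probe sets and 6 arrays. They were made by RMA, per the submitters' processing notes, with no version given. RMA corrects background, normalizes all arrays by quantiles and summarises probes, which takes out any difference in total RNA. The medians of the deposited values still differed by number. For wild type, nar1-4 and nbp35-3 they were 5.70, 5.71 and 5.72 in number 1, and 5.83, 5.81 and 5.76 in number 2. Unnormalized intensities were not used here. Precision is limited by having 2 arrays a group. In the fit without a term for the replicate number, the SE also takes in the difference between the numbers. For AUR2 in nbp35-3 against wild type it was 0.29 in that fit and 0.13 with the number as a block.

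After 64 control probe sets were set aside, 13513 of 22746 probe sets named 1 gene in the platform annotation, 503 named several and 8730 were not listed. Their symbols come from a RefSeq table of assembly TAIR10.1. Two-sided limma tests (version 3.58.1, R 4.3.3) were run by fitting the 3 genotype means on 6 arrays, with p adjusted by Benjamini-Hochberg over all 22746 probe sets at 0.05. Replicate numbers were compared with genotype as a covariate. The scripts were tested on simulated data.

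The members and lists were chosen with earlier results of these data known. List loci were kept if their written name matched the RefSeq table. Besides the members, the rule named the 3 genes of each list with the smallest p in each mutant against wild type and the 3 genes most like each member. Alternatives were a replicate block, a trended prior, a filter on dim probe sets, quantile normalization, median centring, fits of 2 genotypes, and leaving out each array.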

Additional observations from a re-analysis of the deposited data

How the results depend on the processing

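The genotype comparisons called 0 probe sets by limma under each alternative run. With the replicate block 0 were called in each, with 1009, 1076 and 1263 probe sets at an unadjusted p under 0.05 (196, 139 and 217 without it) for nar1-4 against wild type, nbp35-3 against wild type and nbp35-3 against nar1-4. The block changed no call of a member: AUR1 in nbp35-3 had an unadjusted p of 0.0291 and an adjusted p of 0.930, and PRL between the mutants 0.0172 and 0.860, so that the count of 0 members at an unadjusted p under 0.05 holds only without the block. Deviations of same-numbered arrays correlated at 0.814, 0.694 and 0.674 for these pairs of genotypes, while the meaning of a number is not labelled. In nbp35-3 against wild type, the block gave PRL and AUR2 unadjusted limma p of 0.0539 and 0.061 (adjusted p = 0.930 for both). The SE of AUR2 there was 0.13 with the block and 0.29 without it. Among the 17 list genes against wild type, the block put only FANCM and Haspin in nar1-4 and BUBR1 in nbp35-3 under 0.05. Their unadjusted limma p was 0.0345, 0.0478 and 0.0410, beside 1009 and 1076 of all 22746 probe sets under 0.05 in nar1-4 and nbp35-3. The adjusted p of FANCM, Haspin and BUBR1 was 0.979, 0.979 and 0.930. Number 2 against number 1 called 5325 probe sets, and 1715 to 5816 with an array left out, a fit that also removes what the other array of that genotype says about the number. The counts were 1959 without an array of wild type and 1715 without an array of nar1-4.

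Of 24 genotype differences of the members, 13 changed sign when an array was left out, and 0 passed the threshold. In nar1-4 the ranges were -0.13 to 0.16 for DME 250834_at, -0.029 to 0.24 for DME 250836_at, -0.86 to 0.54 for ICU2, -0.16 to 0.51 for PRL and -0.40 to 0.21 for AUR2. In nbp35-3 they were -0.39 to 0.51, -0.18 to 0.23 and -0.15 to 0.12 for DME 250834_at, 250835_at and 250836_at, and -0.98 to 0.43 for ICU2. Between the mutants they were -0.40 to 0.50 and -0.29 to 0.12 for DME 250834_at and 250835_at, -0.37 to 0.14 for ICU2 and -0.46 to 0.028 for AUR2. PRL, AUR1 and AUR2 in nbp35-3 against wild type kept their sign, at -0.65 to -0.28, -0.59 to -0.23 and -0.62 to -0.01. Median centring turned DME 250836_at in nbp35-3 to 0.015. ATLIG4 between the numbers was 0.02, -0.035 after quantile normalization, -0.072 after median centring and -0.029 to 0.075 with an array left out. Where a cause is not given, the cause was not tested. Signal over background was not used here, and what it limits for the 2 dim DME probe sets and ICU2 was not tested.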
